A study of Mus musculus and Homo sapiens with 9 samples.

Results

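Of the 3410 TDG peaks in B16 mouse melanoma cells, 448 (13.1%) had a summit no more than 1 kb from an end of each of at least 2 protein-coding genes. These peaks are called paired-end peaks here. They were chosen by position alone, from the summit of each peak and the gene starts and ends of the RefSeq table for GRCm38.p6, which shares its coordinates with mm10. Another 1842 peaks lay within 1 kb of the end of only 1 protein-coding gene and are called single-end peaks. Of the 2290 peaks at gene ends, paired-end peaks made up 19.6% (exact binomial 95% interval 18 to 21.2%).

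The study located thymine DNA glycosylase (TDG) and p53 on chromatin with ChIP-seq, in which protein-bound DNA is enriched with an antibody and sequenced. The TDG peaks come from 1 library of B16 cells with the genotype "Tdg HA knockin", in which the tagged protein was enriched with an antibody against the HA tag. The p53 peaks come from 1 library of the same genotype, enriched with a p53 antibody. The other 7 of the 9 samples, among them the input, the IgG library and the HA antibody in cells without the tag, were not analysed here, so whether a peak depends on the tag was not tested. There was no replicate of either list. Peaks and genes are not replicates, so no p-value is given, and every interval covers counting error only. The lists measure occupancy and not expression, so the melanocyte identity of the cells could not be checked from them.

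TDG works in base excision repair. It cuts thymine out of G/T mismatches and cuts out some of the oxidised forms of methylcytosine made by TET enzymes, which makes it part of active DNA demethylation. Many mammalian genes lie head to head with a neighbour: the 2 genes are transcribed away from each other from a short shared region called a bidirectional promoter. Such promoters are often rich in CG dinucleotides, seldom carry a TATA box and are known for serving DNA repair, mitochondrial and other housekeeping genes. Genes can also lie in tandem, where the stop end of one gene precedes the start of the next on the same strand, or tail to tail, with their stop ends facing each other.

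The sequences below show what lies between the start sites at 8 head-to-head paired-end peaks, taken from the RefSeq promoter windows of GRCm38.p6. They were picked from the pairs with the highest fold enrichment and from the gene lists described further on, to show gaps of different length and content. Capitals run from the first base of one gene to the first base of the other, and the lower-case ends are the 30 bases next to them, or fewer where the window ended. The first gene named is transcribed to the left and the second to the right.
L3hypdh/Jkamp, chr12:72085403-72085563, plus strand: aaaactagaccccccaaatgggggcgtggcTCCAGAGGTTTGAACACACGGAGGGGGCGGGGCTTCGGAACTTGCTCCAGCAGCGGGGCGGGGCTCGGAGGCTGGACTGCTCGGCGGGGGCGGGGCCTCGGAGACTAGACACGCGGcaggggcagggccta
Senp8/Myo9a, chr9:59750619-59750878, plus strand: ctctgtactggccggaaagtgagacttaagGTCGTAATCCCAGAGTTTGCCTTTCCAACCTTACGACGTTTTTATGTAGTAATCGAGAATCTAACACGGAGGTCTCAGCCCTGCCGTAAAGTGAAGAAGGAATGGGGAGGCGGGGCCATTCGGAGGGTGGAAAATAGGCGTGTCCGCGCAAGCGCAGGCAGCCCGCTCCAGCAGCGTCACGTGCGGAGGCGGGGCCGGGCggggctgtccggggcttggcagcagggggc
Slc26a8/Mapk14, chr17:28691243-28691372, plus strand: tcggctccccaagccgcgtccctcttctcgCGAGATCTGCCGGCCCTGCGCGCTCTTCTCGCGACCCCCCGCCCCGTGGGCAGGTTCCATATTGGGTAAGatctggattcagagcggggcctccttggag
Fkbp3/Fancm, chr12:65073908-65074140, plus strand: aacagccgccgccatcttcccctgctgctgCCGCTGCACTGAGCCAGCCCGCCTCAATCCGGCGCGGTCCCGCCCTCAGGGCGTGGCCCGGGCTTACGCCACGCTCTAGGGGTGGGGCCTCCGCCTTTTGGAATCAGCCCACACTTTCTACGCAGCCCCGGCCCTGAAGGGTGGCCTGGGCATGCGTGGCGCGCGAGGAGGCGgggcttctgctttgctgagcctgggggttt
Clcn2/Polr2h, chr16:20717716-20717856, plus strand: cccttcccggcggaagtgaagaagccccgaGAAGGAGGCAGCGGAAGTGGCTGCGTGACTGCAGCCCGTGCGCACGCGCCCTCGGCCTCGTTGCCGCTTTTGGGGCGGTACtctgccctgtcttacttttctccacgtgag
Mrpl40/Hira, chr16:18876607-18876780, plus strand: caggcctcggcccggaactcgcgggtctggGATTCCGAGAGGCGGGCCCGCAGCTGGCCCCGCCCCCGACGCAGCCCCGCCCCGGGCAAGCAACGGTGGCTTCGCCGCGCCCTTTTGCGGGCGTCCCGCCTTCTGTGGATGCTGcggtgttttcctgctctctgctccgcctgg
Atm/Npat, chr9:53536798-53536919, plus strand: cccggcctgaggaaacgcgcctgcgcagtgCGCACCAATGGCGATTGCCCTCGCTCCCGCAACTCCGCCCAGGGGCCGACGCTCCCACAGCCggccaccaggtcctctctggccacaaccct
Wdr4/Ndufv3, chr17:31519955-31520145, plus strand: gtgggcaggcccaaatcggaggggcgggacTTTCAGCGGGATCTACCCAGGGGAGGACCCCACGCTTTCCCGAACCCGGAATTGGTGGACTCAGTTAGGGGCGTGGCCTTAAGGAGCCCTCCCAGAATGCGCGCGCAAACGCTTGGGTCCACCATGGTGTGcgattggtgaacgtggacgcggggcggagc

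The capitals cover 62 bases between Atm, the kinase that signals double-strand breaks, and Npat, the coactivator of histone genes. They cover 200 bases between Senp8, a protease of the ubiquitin-like protein NEDD8, and Myo9a, an unconventional myosin. The gap between L3hypdh, trans-L-3-hydroxyproline dehydratase, and Jkamp, a membrane protein that binds the kinase JNK, held 12 CG dinucleotides in 116 bases. The gap between Fkbp3, an FK506-binding protein, and Fancm, a DNA translocase of the Fanconi anaemia pathway, held 18 in 173 bases. The GC box GGGCGG or its reverse complement was present in all 8 stretches, and the TATA motif TATAAA was present in none of the 8. The 8 were picked, so these counts describe only them. Among other stretches cut in the same way, those at Mthfd2/Mob1a, Tln1/Creb3 and Brca1/Nbr1 lacked the GC box. The stretch at Tcta/Rhoa held the TATA motif. At Atm/Npat the summit lay within the gap, 28 bases from the start of Atm and 33 bases from that of Npat. The Wdr4/Ndufv3 summit was also between the starts, 60 bases from Wdr4, a subunit of a tRNA methyltransferase, and 70 bases from Ndufv3, a complex I subunit. At Senp8/Myo9a it lay 477 bases inside Myo9a. The summit lies outside the sequence shown in 4 of the 8: Senp8/Myo9a, L3hypdh/Jkamp, Fkbp3/Fancm and Clcn2/Polr2h. Of the 259 head-to-head peaks, 133 had both starts in 1 promoter window of 300 bases, and in 107 of these the genes were separated by a gap. A stretch cut in the same way holds the summit in 36 of the 107.

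Most paired-end peaks had 2 genes at hand, and most of the pairs whose strands were known stood head to head. There were 436 peaks with 2 genes, 12 with 3 genes and 0 with 4 or more. Together they touched 896 distinct genes, and 1 pair had 2 peaks. The strand of both genes was given by the promoter table for 329 peaks, and of these 259 (78.7%, interval 73.9 to 83.0%) were head-to-head. Another 53 (16.1%) were tandem, 11 had 2 starts on the same strand, 5 had a start next to a stop on the opposite strand, and 1 was tail-to-tail. That tail-to-tail peak lay between Ntmt1, an N-terminal methyltransferase, and Asb6 with a fold enrichment of 4.94. For the remaining 119 peaks no orientation is given. Among the peaks with 3 genes, the highest was at Nup62, a nucleoporin, Il4i1b and the transcription factor gene Atf5 (9.37-fold). This peak, like Rspry1/Psme3ip1 (7.40-fold), was picked out after its value was seen.

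The annotation itself holds a different mix of close pairs. Among 2255 oriented pairs of genes with ends within 1 kb of each other, 39.7% were head-to-head, 32.2% tail-to-tail and 22.4% tandem. Over all 3541 such pairs, oriented or not, 456 had a summit within 1 kb of both ends, which is 12.9%. Read against that background, the head-to-head pairs stood at 262 of 896 (29.2%, interval 26.3 to 32.3%) and the tandem pairs at 53 of 506 (10.5%, 7.94 to 13.5%). Tail-to-tail pairs stood at 3 of 725 (0.414%, 0.0854 to 1.2%). Pairs with 2 starts on the same strand, 32 of them with starts at most 100 bases apart, stood at 12 of 40 (interval 16.6 to 46.5%). Pairs with a start beside a stop on the opposite strand stood at 8 of 42 (19.0%, 8.6 to 34.1%). The intervals of the tandem and of the opposite-strand pairs include the 12.9% of all close pairs. Those of the head-to-head pairs and of the 40 pairs with same-strand starts lie above it, and that of the tail-to-tail pairs below it. The 12.9% also counts pairs of unknown strand. Of the oriented pairs alone, 338 of 2255 had a summit within 1 kb of both ends (interval 13.5 to 16.5%). Against that share the tandem interval lies below, and the other classes named here keep their place.

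The 2 ends at a paired-end peak were close together. Their spacing had a median of 181.5 bases with quartiles of 68.75 and 398, and it ranged from 0 to 1619 bases. The median over all 3541 annotated pairs within 1 kb was 180 bases. Head-to-head pairs had a median spacing of 147 bases and tandem pairs of 343 bases. Pairs more than 1 kb apart were few by construction, since the window in which a summit is near both ends narrows as the ends move apart. Among head-to-head pairs the share with a TDG peak was 26.0% (interval 21.6 to 30.7%) at spacings of up to 100 bases, 29.4% (23.6 to 35.8%) above 100 and up to 250, 34.7% (27.6 to 42.3%) above 250 and up to 500, and 31.4% (23.1 to 40.5%) above 500 and up to 1000 bases. The intervals of these 4 classes overlapped.

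The smallest gap was at Tcta/Rhoa, where the starts were 1 base apart. Rhoa encodes the small GTPase RhoA, and the peak there reached 5.73-fold. The next were Zcrb1/Pphln1 with starts 4 bases apart (5.47-fold), and then, at 5 bases, Arl16/Hgs (6.25-fold), which holds the gene of the endosomal sorting protein HRS, and Dbf4/Slc25a40 (4.87-fold), which holds the gene of the activator of the replication kinase CDC7. Gene bodies overlapped at 140 of the 448 peaks. Of the head-to-head peaks, 93 had overlapping bodies, with a median overlap of 242 bases. The 3 longest overlaps were of another kind. Setdb2, a SET domain protein, shared 38872 bases with the model Gm45935, and the inositol transporter gene Slc5a3 shared 29138 bases with Mrps6. Prc1, a regulator of the mitotic spindle midzone, shared 21669 bases with Rccd1, where a start met a stop on the opposite strand.

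Within the 1 kb that the rule allows, summits lay near the starts of head-to-head pairs. In most tandem pairs they lay nearer to the start than to the stop. The median distance of the summit from the midpoint of 2 head-to-head starts was 129 bases (quartiles 60 and 254.75), and 192 of 259 summits (74.1%) lay within 250 bases of it. With a median spacing of 147 bases, a summit near either start is also near the midpoint, so these values show no preference for the middle. The median was 88 bases to the nearer start and 225 bases to the farther start. At single-end peaks at a start the median distance was 127 bases. The nearer of 2 distances tends to be smaller than a single distance by construction. The 88 and 127 bases therefore do not show that head-to-head summits lie closer to a start. Of the 166 head-to-head pairs with a gap, 61 had the summit between the starts and 105 had it inside one of the genes. The median gap of these 166 pairs was 118.5 bases. In tandem pairs 49 of 53 summits were nearer to the start than to the stop, with median distances of 133 and 440 bases. The whole peak covered both ends at 222 of the 448 paired-end peaks, 1 end at 151 and neither at 75. Among head-to-head peaks it covered both starts at 158 (61.0%).

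**Figure D1:**
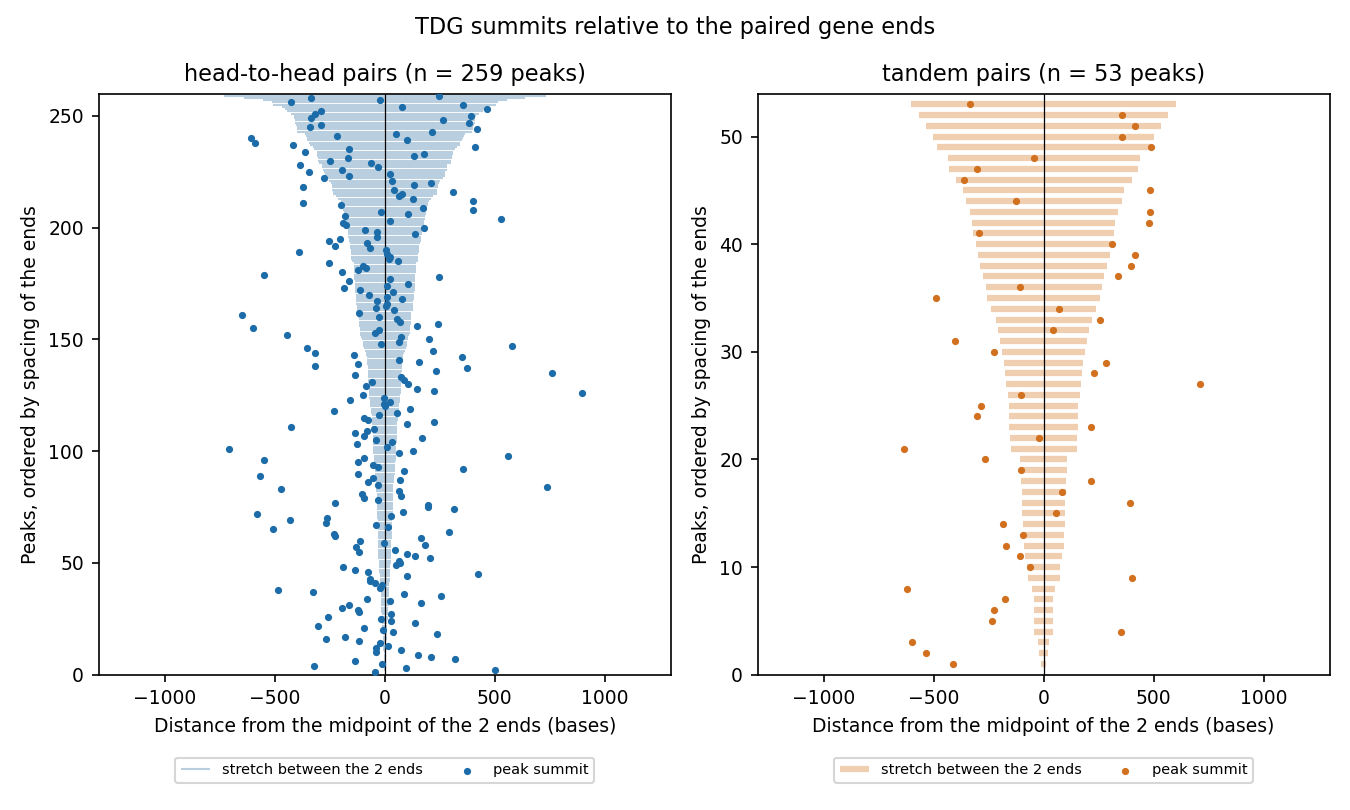
Position of each TDG summit (point) on the x axis, in bases from the midpoint of the 2 paired ends, with the stretch between the ends as a bar. Each row on the y axis is 1 peak, ordered by spacing, for 259 head-to-head peaks (left) and 53 tandem peaks (right). Of the head-to-head summits, 192 lie within 250 bases of the midpoint, which is itself close to both starts in most pairs. Of the tandem summits, 49 lie nearer to the start, which can be either edge of the bar because pairs are not turned by strand. Some lie outside the bar.

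Gene starts with a head-to-head neighbour held TDG more often than lone starts, but the size of that difference depended on how a shared peak was counted. With a summit counted for every start within 1 kb, 512 of 1762 starts with a head-to-head neighbour (29.1%, interval 26.9 to 31.2%) had one. Of 14824 starts with no end of another protein-coding gene within 1 kb, 1512 (10.2%, 9.72 to 10.7%) had one. Starts with a tandem stop nearby stood at 57 of 495 (11.5%, 8.84 to 14.7%), an interval that includes the value of lone starts. A peak between 2 head-to-head starts counts for both, so the 2 starts of a pair are not independent. When each summit was counted only for the end nearest to it, the share was 14.5% (12.9 to 16.3%) for head-to-head starts and 10.2% (9.67 to 10.6%) for lone starts. That count credits a shared summit to only 1 of 2 starts, so it lowers the head-to-head share by its design. Head-to-head starts with a summit fell from 512 to 256, and lone starts from 1512 to 1505. The ratio of the shares was 2.85 in the first count and 1.43 in the second. This second count, like the splits by orientation and CpG content, was chosen after the data had been seen.

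Stop ends held TDG far less often than starts, except beside a start of another gene. A TDG summit lay within 1 kb of 31 of 15064 lone stops (0.206%, interval 0.140 to 0.292%) and of 7 of 1433 stops with a tail-to-tail neighbour (0.488%, 0.197 to 1.00%), and these intervals overlap. It lay near 55 of 492 stops that precede the start of a tandem neighbour (11.2%, 8.53 to 14.3%), and near 7 of 67 stops beside a start on the opposite strand (10.4%, 4.30 to 20.3%). A stop this close to a start is also credited with a summit at that start. Of the 53 tandem summits, 49 were nearer to the start, and a nearest-end count of stops is not given. Over all ends of known and unknown strand, 902 of 6325 ends with another end within 1 kb (14.3%) and 1828 of 37449 ends without one (4.88%) had a summit.

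**Figure D2:**
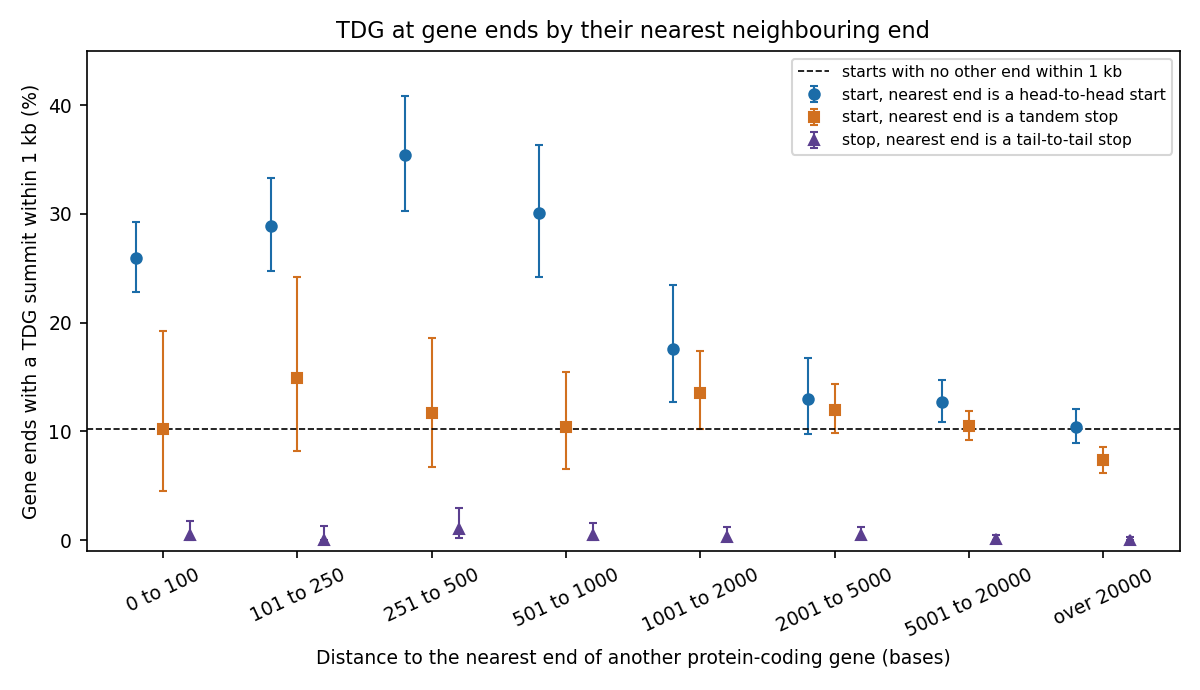
Share of gene ends with a TDG summit within 1 kb (y axis, percent, with exact binomial 95% intervals) by distance to the nearest end of another protein-coding gene (x axis, bases). Starts with a head-to-head neighbour (circles) stand between 26.0% and 35.4% up to 1000 bases and fall to 10.4% in the farthest class, while starts behind a tandem stop (squares) range from 7.33% to 14.9% around the 10.2% of lone starts (dashed) and tail-to-tail stops (triangles) stay near 0.

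CpG content split the comparison further. A promoter window was called CpG-rich where its GC content was at least 50% and its CG dinucleotides reached at least 0.6 of the number expected from its C and G. Of the promoters of genes with a start at a head-to-head paired-end peak, 441 of 515 (85.6%) were CpG-rich, against 82.9% at single-end peaks and 45.8% of all 17492 promoters. Head-to-head starts without TDG were CpG-rich in 76.2%. Among starts without a CpG-rich promoter, TDG lay at 73 of 371 head-to-head starts (19.7%, interval 15.8 to 24.1%) and at 258 of 8705 lone starts (2.96%, 2.62 to 3.34%). Counted by nearest end, the shares were 8.89% (6.20 to 12.3%) and 2.92% (2.57 to 3.29%). Among CpG-rich starts the shares were 31.6% (29.1 to 34.1%) and 20.5% (19.5 to 21.5%) with shared counting, but 16% (14.1 to 18.1%) and 20.4% (19.4 to 21.5%) by nearest end. The direction among CpG-rich starts thus turned with the way a shared peak was counted, and the direction among the other starts did not.

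**Figure D3:**
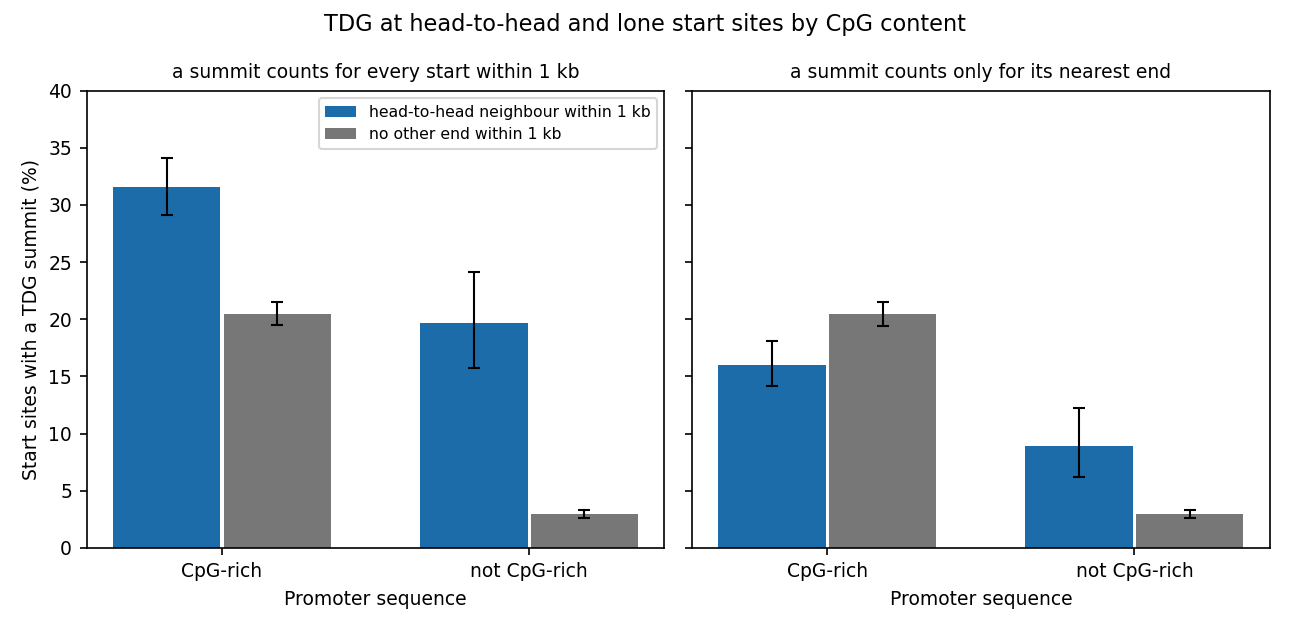
Share of start sites with a TDG summit (y axis, percent, bars from 0, with exact binomial 95% intervals) for starts with a head-to-head neighbour within 1 kb (blue) and with no other end within 1 kb (grey), by CpG content of the promoter (x axis). On the left a summit counts for every start within 1 kb, on the right only for its nearest end; the CpG-rich bars change order between the panels, from 31.6% and 20.5% to 16% and 20.4%.

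Paired-end peaks had nearly the same median fold enrichment as single-end peaks and were wider. The authors' fold enrichment, the height of the summit over the local background of the peak caller, had a median of 5.87 at paired-end peaks (95% order-statistic interval 5.73 to 5.99) and of 5.99 at single-end peaks (5.80 to 5.99). The quartiles were 5.18 and 6.77 at paired-end peaks, and 5.14 and 6.99 at single-end peaks. Head-to-head peaks, tandem peaks and single-end peaks at a start all had a median of 5.99. The reads recovered at the summit had a median of 24 in paired-end and in single-end peaks. Paired-end peaks made up 19.6%, 21.0%, 20.4% and 17.2% of the gene-end peaks in 4 nearly equal classes of fold enrichment, from the lowest to the highest. The median width was 479.5 bases (443 to 501) at paired-end peaks and 425 bases (413 to 435) at single-end peaks, and it was 494 bases at head-to-head peaks against 429 bases at single starts. Of the 61 gene-end peaks at least 1000 bases wide, 19 (31.1%, interval 19.9 to 44.3%) were paired-end.

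The widest paired-end peak, of 1750 bases, lay at 2 gene models with placeholder names, LOC108167694 and Gm20783. The next, of 1392 bases, lay at Aup1, a protein of lipid droplets and the endoplasmic reticulum, and Htra2, a mitochondrial serine protease (4.53-fold). The peak at Cbx5 and Hnrnpa1 covered 1384 bases and reached 8.33-fold. Cbx5 encodes heterochromatin protein HP1 alpha and Hnrnpa1 an RNA-binding splicing regulator.

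**Figure D4:**
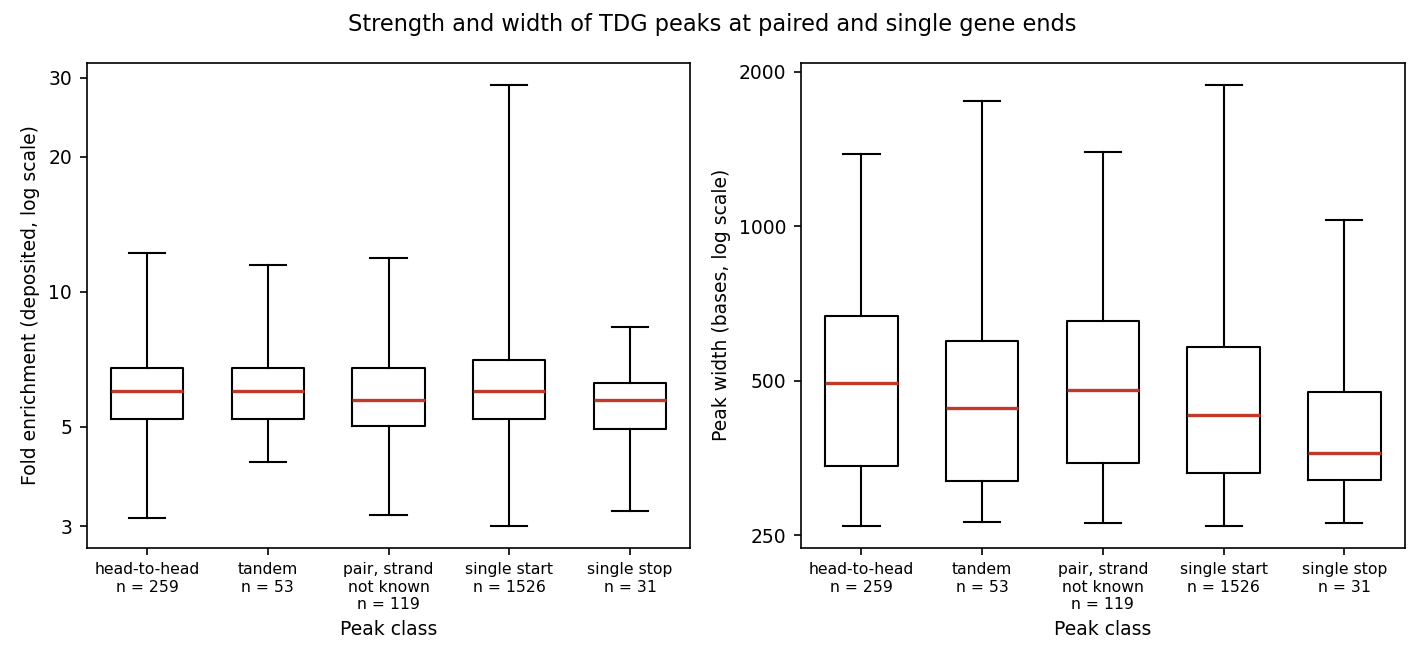
Deposited fold enrichment (left, log axis) and peak width in bases (right, log axis) of TDG peaks by class on the x axis. Boxes give the quartiles, red lines the medians and whiskers the lowest and highest peak; the medians of fold lie between 5.73 and 5.99 in the 5 classes, and the median width is 494 bases at head-to-head peaks and 429 bases at single starts.

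The strongest paired-end peak, of 12.2-fold with 48 reads at the summit, lay at chr12:108179278-108179881, where Ccnk and Setd3 start head to head and overlap by 38 bases. Ccnk encodes cyclin K, the partner of the transcription kinase CDK12, and Setd3 a methyltransferase of actin. Next came Usp5, a deubiquitinase that disassembles free ubiquitin chains, with Cdca3, a regulator of mitotic entry (11.9-fold, 45 reads), at chr6:124828663-124829897. The tandem pair Abtb1/Podxl2 reached 11.4-fold with 63 reads. Kifc2, a kinesin motor, shared a peak of 10.9-fold with Cyhr1. Pdcd10, a gene of cerebral cavernous malformation, shared one of 10.7-fold with Serpini1, the gene of neuroserpin. L3hypdh/Jkamp followed at 10.4-fold.

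Senp8/Myo9a, printed above, and Smarcd2/Tcam1 both stood at 10.1-fold. Smarcd2 encodes a subunit of the SWI/SNF chromatin remodeller. Chromatin genes also stood at Atxn7l3 (9.89-fold), which pairs with the model Gm33851 and encodes a part of the deubiquitinase module of the SAGA complex, and at Ino80b (9.60-fold), a subunit of the INO80 remodeller that lies in tandem with Wbp1. Also among the 15 strongest were Il17rc/Creld1 in tandem (9.91-fold), where Il17rc encodes an interleukin-17 receptor chain, and Tceanc2/Tmem59 (9.89-fold). Sptbn4/Blvrb and Pcsk4/Reep6 each stood at 9.63-fold. Sptbn4 encodes a beta spectrin, Blvrb biliverdin reductase B, and Reep6 a protein that shapes the endoplasmic reticulum. Of the 15 strongest, 8 were head-to-head, 3 tandem and 4 without a known orientation.

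Just inside the window, the farther gene end was 993 bases from the summit at Armc5/9130023H24Rik (6.49-fold) and 992 bases at Zfp706/LOC115488529 (7.81-fold). Just outside, it was 1004 bases away at Gatd3a/Pwp2 (5.99-fold) and 1009 bases at Prune1/Mindy1 (4.70-fold).

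Genes of DNA repair stood at paired-end peaks in a larger share than protein-coding genes at large. Over all 21887 protein-coding genes, 12.3% had a TDG summit within 1 kb of an end and 4.09% were at a paired-end peak. Of 71 genes of DNA repair outside base excision repair, 16 were at a paired-end peak (22.5%, interval 13.5 to 34%) and 11 more at single-end peaks only. Among those with the highest fold were Xrcc3 with Zfyve21 (8.07-fold), Fancm with Fkbp3 (7.55-fold) and Atm with Npat (6.77-fold). Xrcc3 serves homologous recombination. The same list had 23 head-to-head starts among its 56 genes of known strand (41.1%), against 10.1% of all genes, and 11 of those 23 held TDG, against 512 of 1762 over all genes (29.1%). Other lists stood on both sides of that share. The counts were 3 of 3 for p53 targets, 8 of 17 for solute carriers and 4 of 10 for chaperones. They were 6 of 27 for the mitochondrial ribosome, 4 of 30 for the respiratory chain and 0 of 7 for base excision repair. These counts are small and carry no interval. Head-to-head starts made up 39.1% for the mitochondrial ribosome, 38.9% for base excision repair and 38.5% for chaperones. The 41.1% was thus not particular to DNA repair. Which part of the DNA repair list's share comes from its arrangement was not tested. Of the 22 base excision repair genes, the pathway of TDG itself, 1 was at a paired-end peak: Mbd4, another thymine glycosylase, with Ift122 (6.18-fold). A further 3 were at single-end peaks only.

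RNA processing and replication genes followed. Of 56 splicing genes, 10 (17.9%, interval 8.91 to 30.4%) were at paired-end peaks, led by Hnrnpa1 with Cbx5 (8.33-fold), Hnrnpa2b1 with Cbx3 (7.47-fold), U2af2 with Ccdc106 (7.03-fold) and Snrpd3 with Gucd1 (6.77-fold). Cbx3, like Cbx5, encodes a heterochromatin protein of the HP1 family, so these genes of the HP1 family each shared a peak with the gene of an hnRNP protein. Of 67 cell cycle and replication genes 8 (11.9%, 5.30 to 22.2%) were at paired-end peaks. These included Foxm1, a transcription factor of the cell cycle, with Rhno1, and Pold1, the catalytic subunit of DNA polymerase delta, with Nr1h2, both at 6.25-fold, and Pole, that of polymerase epsilon, with Pxmp2 at 5.99-fold. Chaperone genes stood at 4 of 32 (12.5%, 3.51 to 29.0%): Hspd1 and Hspe1, which share a peak of 7.87-fold, Bag1 with Chmp5 (6.48-fold) and Cct7 with Pradc1 (5.42-fold).

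Lists of mitochondrial and transcription machinery genes were counted in the same way. Mitochondrial ribosome genes were at paired-end peaks in 9 of 78 cases (11.5%, interval 5.41 to 20.8%), among them Mrpl51 with Ncapd2 (7.27-fold), Mrpl40 with Hira (6.95-fold), and Mrpl41 with Pnpla7 and Mrps6 with Slc5a3, both at 5.73-fold. Ncapd2 is a condensin subunit and Hira a histone chaperone. Respiratory chain genes stood at 9 of 109 (8.26%, 3.85 to 15.1%), led by Uqcrq with Gdf9 (6.85-fold), Cox14 with Gpd1 (6.77-fold), Ndufb6 with Topors and Smim27 (6.72-fold) and Ndufv3 with Wdr4 (6.48-fold). Genes of RNA polymerases and Mediator stood at 9 of 112 (8.04%, 3.74 to 14.7%), led by Polr2h with Clcn2 (7.03-fold), Polr1d with Lnx2 (6.51-fold), Polr3f with Dzank1 (6.02-fold) and Polr2b with Noa1 (5.73-fold). The intervals of the last 2 lists, like that of the chaperones, reach below the 4.09% of all genes. Cytosolic ribosome names stood at 6 of 101, among them Rpl37 with Card6 (8.59-fold), Rps25 with Trappc4 (6.77-fold), Rpl36 with Micos13 (6.51-fold) and Rps18 with Vps52 (5.47-fold). That list was drawn by name and also counts Rps6kb1, a kinase of ribosomal protein S6, among the 6.

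Other lists were near or below the background, or had too few genes to stand apart from it. Of 400 Zfp zinc finger genes 16 (4.00%) were at paired-end peaks, led by Zfp706 with LOC115488529 (7.81-fold), and of 389 solute carrier names 18 (4.63%), led by Slc25a41 with Khsrp (8.85-fold) and Slc26a8 with Mapk14 (8.01-fold). Mapk14 encodes the stress kinase p38 alpha. Chromatin and DNA methylation genes stood at 3 of 58: Kmt2b with Zbtb32 (5.21-fold), Setd1b with Rhof (4.64-fold) and Kdm5a with Ccdc77 (3.44-fold), where Kmt2b and Setd1b encode methyltransferases and Kdm5a a demethylase of a lysine in histone tails. Of 37 aminoacyl-tRNA synthetase genes 1 was at a paired-end peak, Fars2 with Lyrm4 (5.99-fold). Of 16 melanocyte genes 1 was, Pmel, which forms the fibrils of the melanosome, with Rab5b (4.70-fold). There were 0 among 40 proteasome, 39 Hox, 67 histone, 112 keratin, 69 protocadherin and 1110 olfactory receptor genes. The histone genes had 19 head-to-head starts among 62 with a known strand (30.6%), of which 0 held TDG.

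**Figure D5:**
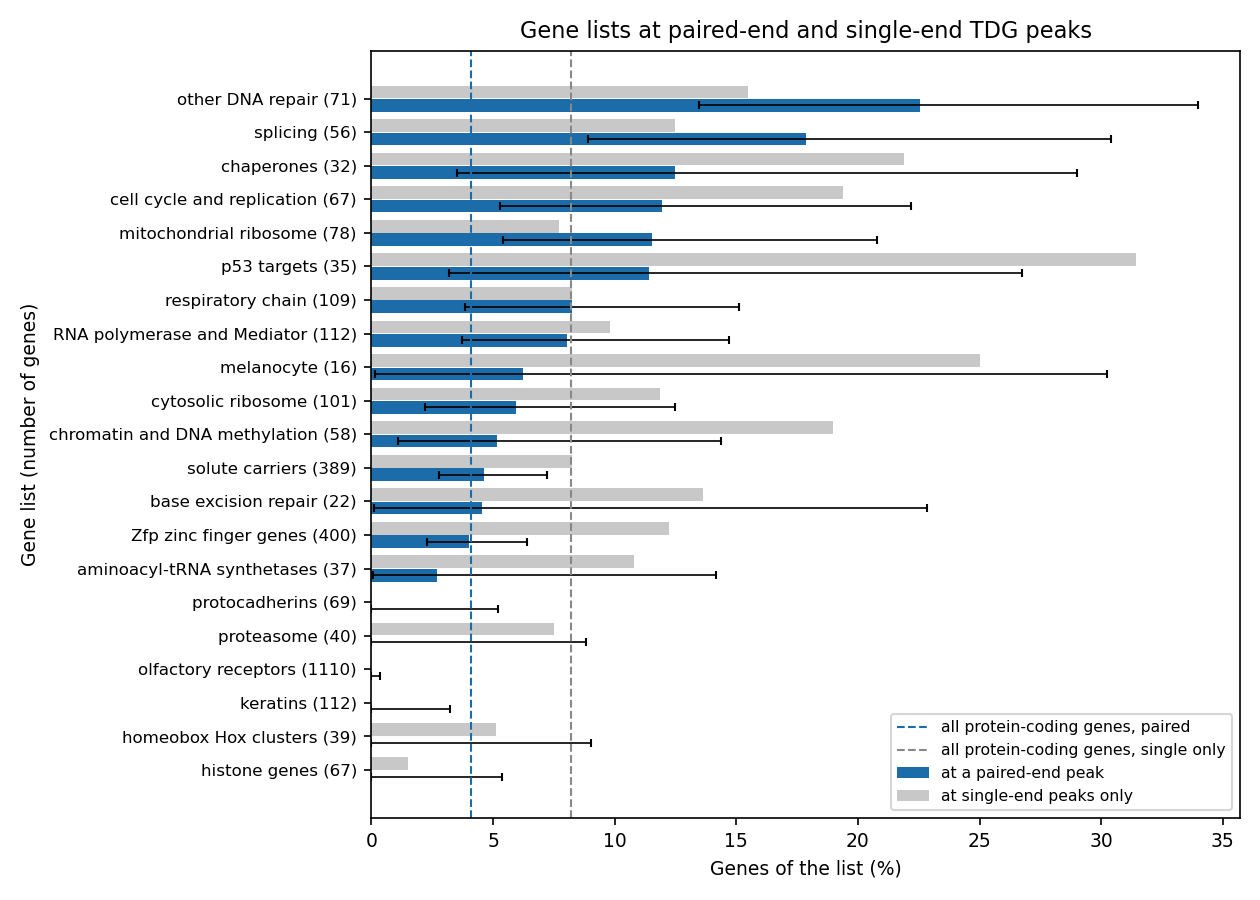
Share of the genes of each list (x axis, percent) at a paired-end TDG peak (blue, with exact binomial 95% intervals) and at single-end peaks only (grey), with the number of genes per list in parentheses on the y axis. Dashed lines give all protein-coding genes, 4.09% paired and 8.19% single only; DNA repair genes other than base excision repair lie highest for paired-end peaks at 22.5%.

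A list of 24 neighbouring gene pairs known from textbooks was also counted. The ends lay within 2 kb of each other in 23, and 8 of these had a paired-end TDG peak. Of all pairs with ends within 1 kb, 12.9% had one, and of the head-to-head pairs 29.2%. Among the 8 textbook pairs with a peak were Hspd1/Hspe1 (7.87-fold), Atm/Npat (6.77-fold), Ppat/Paics (5.99-fold), Prkdc/Mcm4 (5.73-fold), Brca1/Nbr1 (4.50-fold), Xpc/Lsm3 (4.48-fold) and Ranbp1/Trmt2a (4.08-fold). The Brca1/Nbr1 peak covered neither start: its summit lay 683 bases inside Nbr1 and 835 bases from the start of Brca1. Hspd1 and Hspe1 encode the mitochondrial chaperonin and its cofactor, and Ppat and Paics encode enzymes of purine synthesis. Prkdc is the DNA-dependent protein kinase of end joining and Mcm4 a subunit of the replicative helicase. Brca1 serves homologous recombination and Xpc recognises lesions in nucleotide excision repair. No TDG summit lay within 1 kb of any end of the other 16 pairs. Those include Trp53/Wrap53, Surf1/Surf2, Col4a1/Col4a2 and Tap1/Psmb9, and the repair pairs Apex1/Osgep, Ung/Alkbh2, Nthl1/Tsc2, Mre11a/Ankrd49 and Fen1/Tmem258. Apex1, Ung, Nthl1 and Fen1 act in base excision repair, as TDG does.

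Short motifs were counted in the promoters at head-to-head paired-end peaks and in other sets of promoters. Against head-to-head promoters without TDG, the printed intervals of the first set did not overlap for the GC box, the NRF1 core and the TATA motif, but did for the ETS motif. The motifs were searched on both strands of the promoter window from 250 bases before to 50 bases after each start. Neighbouring windows of a pair overlap and share sites, while the intervals treat promoters as independent and are therefore too narrow. The intervals of the NRF1 core and of the TATA motif are only narrowly apart, so those 2 differences are uncertain. The 2 head-to-head sets were also not matched for CpG content: 85.6% with TDG and 76.2% without were CpG-rich. The ETS motif CCGGAAG was in 26.2% of the promoters at head-to-head paired-end peaks (interval 22.5 to 30.2%), in 26.4% of head-to-head promoters without TDG (24.0 to 28.9%), in 18.1% at single-end peaks (16.2 to 20.2%) and in 11.9% of all promoters. The GC box GGGCGG was in 71.5% (67.3 to 75.3%), 61.0% (58.2 to 63.7%), 78.2% (76.0 to 80.2%) and 46.3% in the same order. The NRF1 core CGCATGCG was in 6.99% (4.94 to 9.55%), 3.68% (2.71 to 4.88%), 4.91% (3.88 to 6.13%) and 2.55%. The TATA motif TATAAA was in 2.91% (1.64 to 4.76%), 6.48% (5.18 to 7.99%), 4.52% (3.52 to 5.69%) and 13.3%. CpG-rich promoters as a whole, 8004 of them, held the GC box in 76.8% (75.9 to 77.7%), above the interval at head-to-head paired-end peaks, and the ETS motif in 20.2% (19.4 to 21.1%), below it. Their shares with the NRF1 core (4.79%, 4.33 to 5.28%) and with TATAAA (4.81%, 4.35 to 5.30%) had intervals that overlap those at head-to-head paired-end peaks. The cyclic AMP response element TGACGTCA was in 4.85% of promoters at head-to-head paired-end peaks and in 4.71% at single-end peaks. CCAAT was in 44.3% and 45.1%, and the E-box CACGTG in 11.7% and 9.96%. A match is a run of letters and not a measured binding site.

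Few paired-end peaks had a noncoding gene as a further neighbour. An end of a noncoding gene lay no more than 1 kb from the summit at 23 of 448 paired-end peaks (5.13%, interval 3.28 to 7.60%) and at 326 of 1842 single-end peaks (17.7%, 16 to 19.5%). Among head-to-head peaks the count was 8 (3.09%), and among single-end peaks at a start 275 (18%). The same shares were not counted for paired and lone gene ends without regard to TDG. Whether the difference is particular to TDG peaks was therefore not tested.

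No paired-end TDG peak overlapped a p53 peak. The count was 0 of 448, with an exact upper limit of 0.820%. A count of 3, the limit used here for a count of 0, would be a share of 0.670%. Single-end peaks stood at 4 of 1842 (0.217%) and TDG peaks away from gene ends at 11 of 1120 (0.982%, interval 0.491 to 1.75%). All TDG peaks stood at 15 of 3410 (0.440%). The upper limit of 0.820% lies above the shares of all TDG peaks and of single-end peaks, so the 0 does not set paired-end peaks apart from them. Of the 26 p53 peaks at gene ends, 2 lay at the ends of a pair: Traf4/Nek8 in tandem (12.1-fold in the p53 list) and Fam162a/Ccdc58 head-to-head (8.07-fold in the p53 list). Traf4/Nek8 also had the paired-end TDG peak nearest to a p53 summit, 659 bases away and 6.25-fold in the TDG list. Of 35 genes listed as p53 targets, 4 were at paired-end TDG peaks (11.4%, interval 3.20 to 26.7%, which includes the 4.09% of all genes), and 11 more were at single-end peaks only. Together these are 15 of 35 (42.9%), against 12.3% of all genes. A share above that of all genes was not particular to p53 targets. It was 27 of 71 for DNA repair outside base excision repair, 11 of 32 for chaperones and 21 of 67 for cell cycle and replication. Other lists lay lower, such as the proteasome at 3 of 40 and olfactory receptors at 0 of 1110. The 4 p53 targets at paired-end peaks were Sesn1 with Cep57l1 (8.07-fold), Apaf1 with Ikbip and Polk with Cert1 (both 5.99-fold), and Xpc with Lsm3 (4.48-fold). Polk and Xpc are also counted in the DNA repair list. Sesn1 encodes a stress-induced inhibitor of mTORC1 signalling and Apaf1 the scaffold of the apoptosome.

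TDG peaks were spread unevenly over the chromosomes, and the head-to-head difference was present on most of them. Chromosomes 6, 12 and 15 had more than 30 TDG peaks per 100 protein-coding genes, and the X chromosome had 1 gene-end peak in all. With a summit counted for every start, head-to-head starts held TDG more often than lone starts on 17 of the 19 chromosomes with at least 20 such starts. With each summit counted only for its nearest end, a count added after seeing the data, they did so on 16 of the 19. Starts on chromosome 18 were not analysed here. With the first count the shares were 57.1% and 22.3% on chromosome 6, and 9.59% and 2.10% on chromosome 14. They were 6.35% and 7.19% on chromosome 19, and 0% and 0.134% on the X chromosome.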

How the data were processed

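ChIP-seq peak lists of 2 libraries were used, 1 for HA-tagged TDG and 1 for p53, both from B16 cells. Per the submitters' processing notes, the tools were MACS2, Bowtie2, Trim Galore, Picard, ChIPseeker and deepTools, with the build mm10. Settings, versions and control were not given in the sources used here. In narrowPeak columns, the authors deposited the fold enrichment, a ratio of summit to local background, the −log10 p and −log10 q, and a score that equalled 10 times the −log10 q, without its decimals, for all 3410 TDG peaks. Positions are in bases, and the lowest −log10 q was 3.02. Library depth is unknown from the lists. Reads at the summit were recovered by solving the MACS2 formulas (background 2.56 reads, scale 0.924), which matched 99.97% of the −log10 p within 0.05.

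Genes were the 21887 protein-coding genes of the RefSeq table for GRCm38.p6. Strand came from the RefSeq promoter table, which holds 17492 of them. The pair is the 2 ends nearest the summit. Assignment was tested on simulated data. Shares carry exact binomial 95% intervals, medians order-statistic intervals, and no significance test was run over peaks or genes. The members and gene lists were chosen with earlier results of these data known. Named were the 15 strongest peaks, peaks overlapping p53 or with 4 or more genes, the textbook pairs, up to 4 genes per list by fold, the 3 widest peaks, the 3 smallest gaps with ties and the 3 longest overlaps; others are said to have been picked after their values were seen. A few of the items this rule names are not reported here. Python 3.11.15, numpy, pandas and scipy 1.17.1 were used. Alternatives were other windows, a −log10 q of at least 5, genes without placeholder names, other gene sets and other ways of counting.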

Additional observations from a re-analysis of the deposited data

How the results depend on the processing

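Of 45 alternatives, 32 left the value inside the range of the reported one. For shares and medians that range is the 95% interval. For ratios its limits combine the opposite limits of the 2 intervals, which makes it wider than a 95% interval of the ratio. The paired share of gene-end peaks moved from 19.6% to 15.8% with a window of 500 bases and to 24.0% with 2 kb. It was 14.3% without pairs whose gene bodies overlap and 31.9% when noncoding genes were included. The median spacing was 123.5 bases with the smaller window and 276 with the larger. With −log10 q as the strength, the ratio of the paired to the single median was 0.948, against 0.979 with fold enrichment. Gene ends with a neighbour within 2 kb held TDG 2.46 times as often as others, against 2.92 times within 1 kb. With the 2 kb window the head-to-head share of oriented peaks was 66.3%. The ratio of TDG shares at head-to-head and lone starts, 2.85, was 1.54 among CpG-rich promoters and 6.64 among the others. It was 1.43 when a summit counted only for its nearest end. With that count, which credits a summit shared by 2 starts to only 1 of them, the ratio was 3.05 among promoters that are not CpG-rich. Among CpG-rich ones it turned to 0.784. These splits were chosen after seeing the data. No paired analysis was possible because each list stands for 1 library, and no replicate could be left out for the same reason. The summit reads limit strength: the median peak has 24.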
